A study of Mus musculus with 6 samples.

Results

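The 10 miRNAs described here are known from the cells that build blood vessels: miR-126a-3p and miR-126a-5p from the endothelium, miR-143-3p and miR-145a-5p from smooth muscle and other mural cells, and miR-199a-3p, miR-199a-5p, miR-214-3p, miR-10a-5p, miR-10b-5p and miR-195a-5p from vessel wall, pericyte or mesenchymal cells. They were picked out by name among the 1926 entries of the deposited table. Of the 10, 9 were above 0 in at least 1 library and 6 reached the mean of 10 RPM (reads scaled to a fixed total per library) needed for testing, compared with 775 and 290 of all entries. The 3 members above 0 that missed the mean were miR-199a-5p, miR-10a-5p and miR-10b-5p, and miR-214-3p was at 0 in all 6 libraries.

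The libraries hold small RNA of extracellular vesicles, membrane-bound particles released by cells, isolated from the brain tissue of mice. Group SE came from mice that had undergone status epilepticus, a prolonged seizure, and group CON from matched control mice, with 3 libraries each and 24hr in the series title. The agent that induced the seizures, the strain, sex and age of the mice, the event from which the 24hr is counted, and whether each library is 1 animal or a pool are not given in the sources used here. The p-values therefore measure only the spread between these libraries, which may be technical in part.

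An miRNA acts by pairing its seed, bases 2 to 8, with messenger RNAs, which are then repressed. In endothelium, miR-126a-3p is known to lower Spred1 and Pik3r2, inhibitors of signalling downstream of the growth factor VEGF, and mice without the miRNA have leaky vessels. In vessel walls, miR-143 and miR-145a come from 1 precursor and are known to promote the contractile state of smooth muscle cells.

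The seeds show which members can address the same targets, so the mature sequences are given first, with the seed in capitals. RefSeq (build GRCm38.p6) held 7 of the 10 members. Shared seeds could be searched only among entries with a sequence there. The sequence of miR-126a-3p, the most abundant member, lies at chr2:26591402-26591423 on the plus strand. In the annotation used here, its hairpin overlaps an exon of the endothelial gene Egfl7 and an intron of the gene Gm20532. The seed of miR-126a-3p was found in no other entry with a sequence.
miR-126a-3p: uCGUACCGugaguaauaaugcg

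The hairpin of Mir126a spans chr2:26591357-26591429 and is 73 bases long. It is shown because both of its arms were measured. Capitals mark the 3′ arm, which fills bases 46 to 67.
Mir126a hairpin: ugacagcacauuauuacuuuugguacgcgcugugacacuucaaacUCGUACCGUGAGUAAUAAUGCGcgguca

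The mature miR-199a-3p and miR-199b-3p have the same 22 bases, and the authors' table counts them as 1 entry, so the reads of that entry cannot be divided among its hairpins. Those are Mir199a-2 (mature 3′ arm at chr1:162217883-162217904, plus strand), Mir199a-1 (chr9:21496498-21496519, minus strand) and Mir199b (chr2:32318524-32318545, plus strand). They lie antisense in introns of Dnm3, Dnm2 and Dnm1. Mir199a-2 and Mir214 both overlap exons of the long noncoding RNA Dnm3os, 5444 bases apart. The seed of miR-214-3p is also that of miR-761, which was at 0 in all 6 libraries.
miR-199a-3p: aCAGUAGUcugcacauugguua
miR-199b-3p: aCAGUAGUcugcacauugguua
miR-199a-5p: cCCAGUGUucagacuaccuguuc
miR-214-3p: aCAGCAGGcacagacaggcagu

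The pair miR-10a-5p and miR-10b-5p share their seed with each other and with no other entry that has a sequence. They differ at 1 position, written U12A from miR-10a-5p to miR-10b-5p and counted from the 5′ end. Mir10b (mature at chr2:74726074-74726096) lies in introns of Hoxd3 and Hoxd4, and Mir10a (chr11:96317186-96317208) lies between genes, 993 bases from Hoxb4, both on the plus strand.
miR-10a-5p: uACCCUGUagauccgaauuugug
miR-10b-5p: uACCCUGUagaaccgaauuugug

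The seed of miR-195a-5p is that of the miR-15 and miR-16 family, known for lowering cyclins and other drivers of the cell cycle. The mature sequence lies at chr11:70235062-70235082 on the plus strand, 241 bases between its hairpin and that of Mir497. The cluster neighbour miR-497a-5p and the family's most abundant entry, miR-16-5p, are shown for comparison, because all 3 carry this seed.
miR-195a-5p: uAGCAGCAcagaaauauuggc
miR-497a-5p: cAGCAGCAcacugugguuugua
miR-16-5p: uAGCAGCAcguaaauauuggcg

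Across the libraries the depth was 5482407 to 10845434 reads assigned to miRNAs, so that 3 reads, the floor used here, stood for 0.277 to 0.547 RPM. In the deposited table the CON columns do not follow the miRNA names, and their rows were put back through the authors' base means. The values below depend on that step. Within the fit across all 290 tested entries, 3 passed an adjusted p under 0.05 (1.03%), 27 had an unadjusted p under 0.05 (9.31%), and the SE and CON values of 43 entries (14.8%) did not overlap, 13.4% being lower in SE. Without CON replicate 2 the count that passed was 6, and without CON replicate 3 it was 5. Among the 6 tested members, 0 passed at the adjusted p in limma-trend, 0 had an unadjusted p under 0.05, and the groups overlapped in 6. All 290 entries had a median log2 fold change of -0.07 and the 6 members one of -0.08, with 3 members below 0 and 3 above.

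The endothelial miR-126a dominated the set. In SE the level of miR-126a-3p was 4122, 4285 and 3601 RPM in replicates 1, 2 and 3, and in CON it was 5089, 3998 and 5346 RPM. CON replicates 1 and 3 were above every SE library, while CON replicate 2 lay within the SE range. Mean levels were 4003 ± 357 RPM for SE and 4811 ± 716 RPM for CON (SD, n = 3 each), and the entry ranked 22 by mean level in the whole table. The log2 fold change of SE over CON, on the log2(RPM + 1) scale used throughout, was -0.26 (standard error 0.15, 95% confidence interval -0.58 to 0.07, limma-trend adjusted p = 0.641), and the difference did not pass the threshold. Counting error would give a coefficient of variation of 0.563% within SE, and the measured one was 8.92%.

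The other arm of the hairpin, miR-126a-5p, is known to act on Dlk1 in endothelial cells. Its levels were 892, 955 and 754 RPM in SE and 1187, 819 and 1368 RPM in CON. As with the 3′ arm, CON replicates 1 and 3 were the highest libraries and CON replicate 2 lay among the SE values. The means of 867 ± 103 and 1125 ± 280 RPM (SD, n = 3 each) gave a log2 fold change of -0.35 (standard error 0.20, 95% confidence interval -0.78 to 0.08, limma-trend adjusted p = 0.641). The 5′ arm made up 17.8%, 18.2% and 17.3% of the miR-126a reads in SE and 18.9%, 17.01% and 20.4% in CON, so CON replicate 3 had the highest share and CON replicate 2 the lowest. The ratio of the 3′ to the 5′ arm was 4.62, 4.49 and 4.78 in SE and 4.29, 4.88 and 3.91 in CON. Its log2 value differed by 0.09 between the groups (0.02 without CON replicate 3 and 0.18 without CON replicate 2), with p = 0.5 in the exact two-sided permutation test, which has 10 splits and cannot go below 0.1. The Benjamini-Hochberg value over the 2 ratios that could be tested was also 0.5.

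Of the mural cell miRNAs, miR-143-3p was high and its cluster partner was not. The level of miR-143-3p was 1687, 1450 and 1500 RPM in SE and 1673, 1438 and 2278 RPM in CON. A single library, CON replicate 3, stood above the rest, and the other 5 lay between 1438 and 1687 RPM. The group means were 1546 ± 125 and 1796 ± 434 RPM (SD, n = 3 each), and the log2 fold change was -0.19 (standard error 0.18, 95% confidence interval -0.58 to 0.20, limma-trend adjusted p = 0.838). Without CON replicate 3 it was -0.01.

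The level of miR-145a-5p was 25.7, 31.7 and 19.9 RPM in SE and 33.97, 18.2 and 23.4 RPM in CON. The highest and the lowest library were both CON, so the SE values lay inside the CON range. The means were 25.8 ± 5.93 and 25.2 ± 8.02 RPM (SD, n = 3 each) and the log2 fold change was 0.05 (standard error 0.27, 95% confidence interval -0.52 to 0.62, limma-trend adjusted p = 0.966). Although both come from 1 precursor, miR-145a-5p gave 1.02% to 2.14% of the reads of the pair. Its share was 1.502%, 2.14% and 1.31% in SE and 1.99%, 1.25% and 1.02% in CON. The intervals of SE replicate 2 (1.85% to 2.46%, Clopper-Pearson 95%) and CON replicate 3 (0.861% to 1.19%) did not meet, which is a difference between libraries and not between the groups. The ratio of miR-143-3p to miR-145a-5p ran from 45.7 to 75.5 in SE and from 49.2 to 97.5 in CON (difference of log2 ratios -0.25, exact permutation p = 0.5). Without CON replicate 3 that difference was -0.03, without SE replicate 2 it was -0.04, without CON replicate 1 it was -0.53 and without SE replicate 3 it was -0.40. These intervals and the floor of 3 reads cover counting error only, since reads are not independent molecules.

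**Figure D1:**
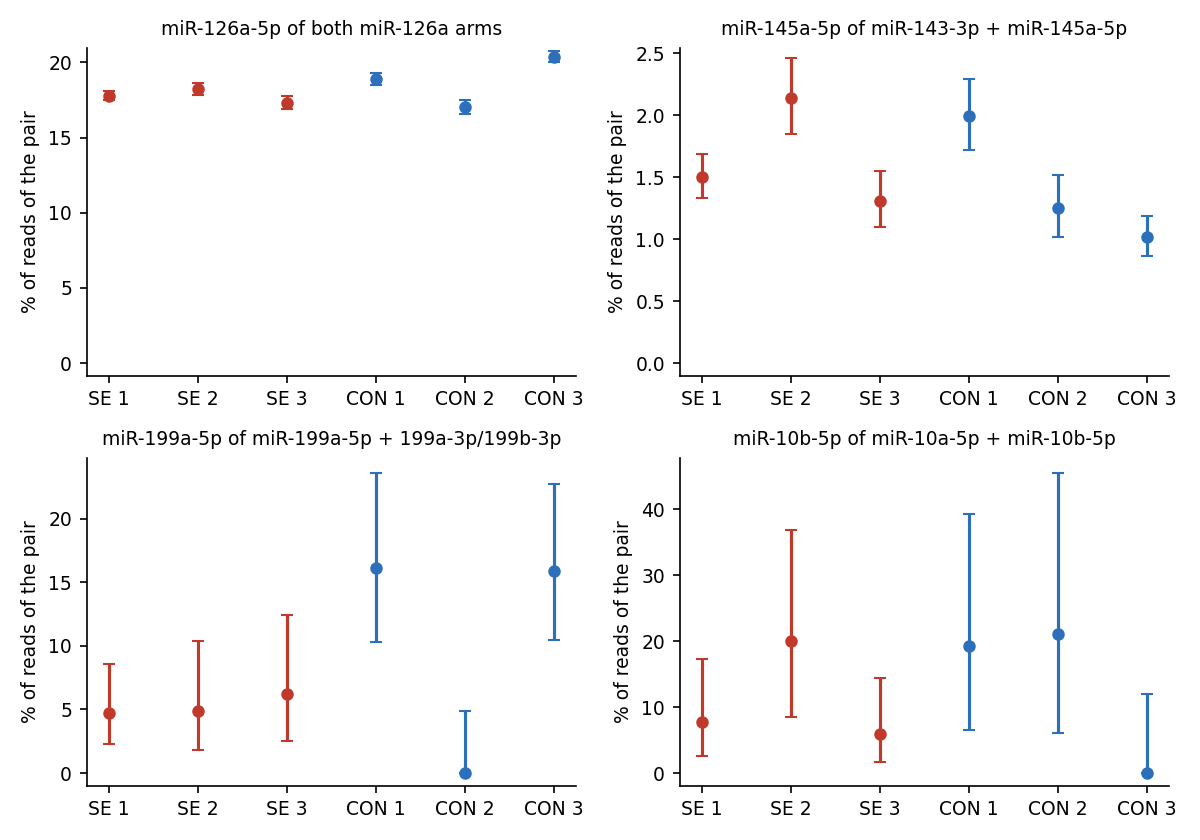
Share of reads within each of 4 pairs of related miRNAs, in percent, for each library (red SE, blue CON), with bars for the Clopper-Pearson 95% interval. The miR-126a-5p share stays between 17.01% and 20.4%, and the miR-199a-5p share of CON replicates 1 and 3 (16.2% and 15.9%) lies above the other 4 libraries.

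The miR-199a and miR-214 group, known from mesenchymal cells and pericytes, was close to the floor except for 1 arm. The merged entry of miR-199a-3p and miR-199b-3p was at 18.4, 19.3 and 15.7 RPM in SE and 19.5, 13.5 and 19.5 RPM in CON. The 2 groups covered nearly the same range, with means of 17.8 ± 1.88 and 17.5 ± 3.47 RPM (SD, n = 3 each). The log2 fold change was 0.04 (standard error 0.25, 95% confidence interval -0.50 to 0.57, limma-trend adjusted p = 0.966). The 5′ arm, miR-199a-5p, was at 0.922, 0.997 and 1.05 RPM in SE, which is 10, 6 and 7 reads, and at 3.75, 0 and 3.69 RPM in CON, which is 21, 0 and 24 reads. CON thus held both the highest libraries and the lowest one, and the groups overlapped. In the fit without a filter its log2 fold change was -0.50 (limma-trend adjusted p = 0.910). The difference of the mean log2 values was -1.25 when CON replicate 2, the library at 0, was left out. Leaving out CON replicate 1 or 3 instead gave -0.12 or -0.13.

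Of the reads of miR-199a-5p and the merged entry together, which also holds miR-199b-3p, miR-199a-5p made up 4.76%, 4.92% and 6.25% in SE. In CON its share was 16.2%, 0% and 15.9%. The intervals of CON replicates 1 (10.3% to 23.6%) and 3 (10.5% to 22.7%) lay above that of CON replicate 2, where 0 of 74 reads allow a share of up to 4.86%. The spread within CON was therefore larger than the distance between any CON library and the nearest SE library. From the same noncoding RNA as Mir199a-2, miR-214-3p was at 0 in every library and so was the other arm, miR-214-5p, which places them under the floor of 0.277 to 0.547 RPM.

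The miR-10 pair, known from the vessel wall and encoded beside the Hox genes, held the single member whose groups did not overlap. The level of miR-10a-5p was 5.44, 4.65 and 9.57 RPM in SE (59, 28 and 64 reads) and 3.75, 2.74 and 4.46 RPM in CON (21, 15 and 29 reads). Every SE library was above every CON library, though SE replicate 2 and CON replicate 3 were 4.65 and 4.46 RPM, with 95% Poisson intervals of 3.09 to 6.73 and 2.99 to 6.40 RPM that overlap. The mean was 6.55 ± 2.64 RPM in SE and 3.65 ± 0.866 RPM in CON (SD, n = 3 each), a ratio of 1.80. Non-overlap with SE higher was met by 2.47% of the 485 entries that were above 0 and under the mean of 10 RPM. Of the 130 entries between 3 and 10 RPM, a range picked after the values were seen, 4.62% met it. These shares count only the direction of miR-10a-5p, and shares over both directions would be at least as high. In the fit without a filter the log2 fold change was 0.66 (standard error 0.35, limma-trend adjusted p = 0.891), and 0.516% of the 775 entries passed there. The difference therefore did not pass the test.

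The level of miR-10b-5p was 0.461, 1.16 and 0.598 RPM in SE and 0.894, 0.730 and 0 RPM in CON, or 0 to 7 reads a library. At this depth no difference was detectable, with overlapping groups and a log2 fold change of 0.21 in the fit without a filter (limma-trend adjusted p = 0.938). Leaving out 1 library moved that difference between -0.08, without CON replicate 3, and 0.38, without CON replicate 1. Over all libraries, 25 of the 241 reads of the pair were miR-10b-5p (10.4%, Clopper-Pearson 95% interval 6.83% to 14.9%). Because these 2 members differ at a single base, how the authors' counting assigned reads between them is uncertain.

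The cell-cycle related miR-195a-5p had the smallest coefficient of variation of the tested members in SE. Its level was 87.1, 88.3 and 89.4 RPM in SE and 88.1, 73.0 and 94.9 RPM in CON. The SE libraries lay close together, inside the CON range. That coefficient was 1.27%, below the 3.80% that counting error alone gives. With means of 88.3 ± 1.13 and 85.3 ± 11.2 RPM (SD, n = 3 each), the log2 fold change was 0.06 (standard error 0.21, 95% confidence interval -0.38 to 0.49, limma-trend adjusted p = 0.952). Its cluster neighbour miR-497a-5p was at 138.3, 103 and 132 RPM in SE and 130, 102 and 132 RPM in CON, with means of 124.3 ± 18.7 and 121 ± 16.7 RPM (SD, n = 3 each). Replicate 2 was the lowest library in both groups. The log2 fold change of miR-497a-5p was 0.03 (limma-trend adjusted p = 0.966).

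Among entries with a sequence, the seed that miR-195a-5p shares is carried by 10, of which 9 are not members, and 5 of those 9 were above 0 and tested. Of the reads of these 10 entries, 96.2% were miR-16-5p, 1.502% miR-497a-5p and 1.05% miR-195a-5p. Alone of the family, miR-16-5p had an unadjusted p under 0.05. Its level was 7228, 7052 and 7583 RPM in SE and 9478, 7954 and 9450 RPM in CON, so the groups did not overlap. The log2 fold change was -0.29 (standard error 0.13, limma-trend unadjusted p = 0.0367, adjusted p = 0.486), and it did not pass the adjusted threshold. The values of miR-15b-5p did not overlap either, with a log2 fold change of -0.25 (limma-trend adjusted p = 0.829). Among all 290 tested entries, 13.4% were without overlap and lower in SE. For miR-15a-5p and miR-322-5p the log2 fold changes were -0.26 and -0.27 (both adjusted p = 0.844, limma-trend). The 2 entries of the Mir497 and Mir195a cluster, at 0.03 and 0.06, were thus the 2 of the 6 tested seed carriers with values above 0. A difference between them and the other 4 was not tested.

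**Figure D2:**
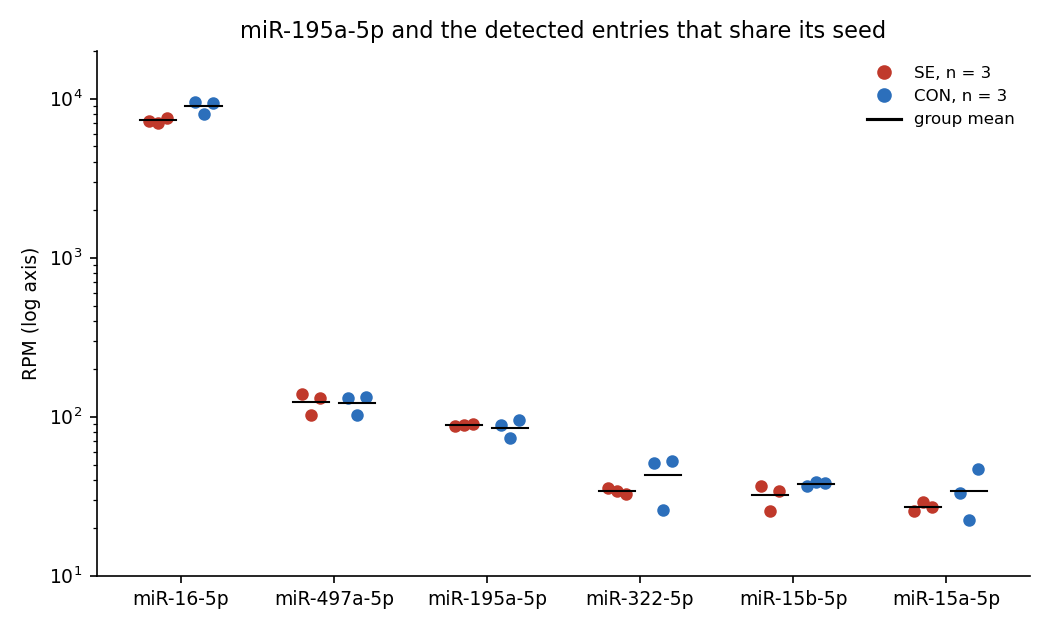
Level in RPM on a log axis of the 6 tested entries found to carry the seed of miR-195a-5p, for each SE (red) and CON (blue) library. The points of miR-16-5p, between 7052 and 9478 RPM, lie far above those of the other 5 entries, and miR-195a-5p lies between 73.0 and 94.9 RPM in both groups.

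Placed side by side, the members covered a wide range of levels. RPM values count reads without division by length, and the members with a sequence are 21 to 23 bases long. The ratios that follow are of reads, and how many reads a molecule of each miRNA gives was not measured. Over all 6 libraries the mean level of miR-126a-3p was 2.64 times that of miR-143-3p, which was 1.68 times that of miR-126a-5p. A larger step followed, since miR-126a-5p was 11.47 times as high as miR-195a-5p, which in turn was 3.41 times as high as miR-145a-5p. In each of these 4 steps the ranges of the neighbours were separate. The ranges of miR-145a-5p and the miR-199a-3p entry overlapped, with miR-145a-5p higher within 6 of 6 libraries. Below the merged entry, miR-10a-5p and miR-199a-5p overlapped, and so did miR-199a-5p and miR-10b-5p. The endothelial miR-126a and the mural miR-143-3p were well detected, whereas the mural miR-145a-5p was low and miR-214-3p was at 0. The libraries do not show which cells released the vesicles.

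**Figure D3:**
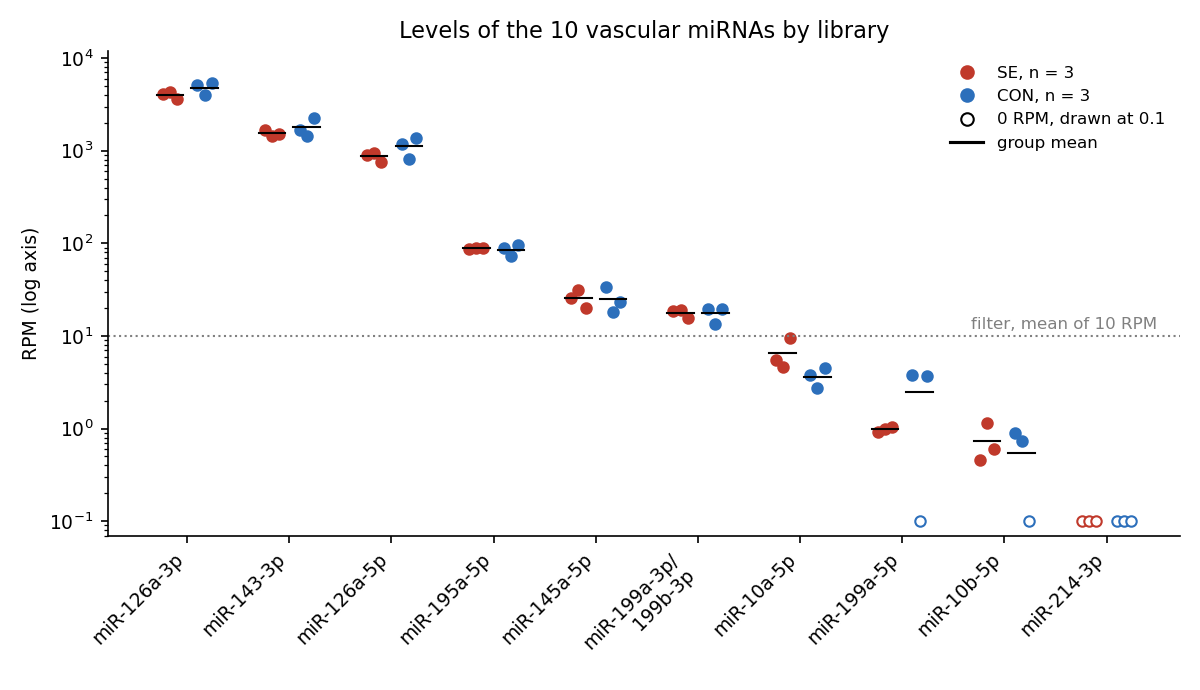
Level of the 10 members in RPM on a log axis, with 1 point for each library (red SE, blue CON), open circles for 0 RPM, a bar for each group mean and a dotted line at the mean of 10 RPM needed for testing. The members run from miR-126a-3p at 3601 to 5346 RPM down to miR-10b-5p at 0 to 1.16 RPM, and the red and blue points are apart only for miR-10a-5p.

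The 10 members summed to 6839, 6836 and 5992 RPM in SE and 8098, 6363 and 9139 RPM in CON. CON replicate 2 lay between the SE values and the other 2 CON libraries above them. As a share of reads this was a mean of 0.656% in SE and 0.787% in CON. Both arms of miR-126a with miR-143-3p made up 97.7% to 98.4% of the sum in every library, so it describes those 3 entries and says little of the other 7. In vesicle RNA from whole tissue, fewer vesicles from a cell type and fewer copies in each vesicle cannot be told apart.

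**Figure D4:**
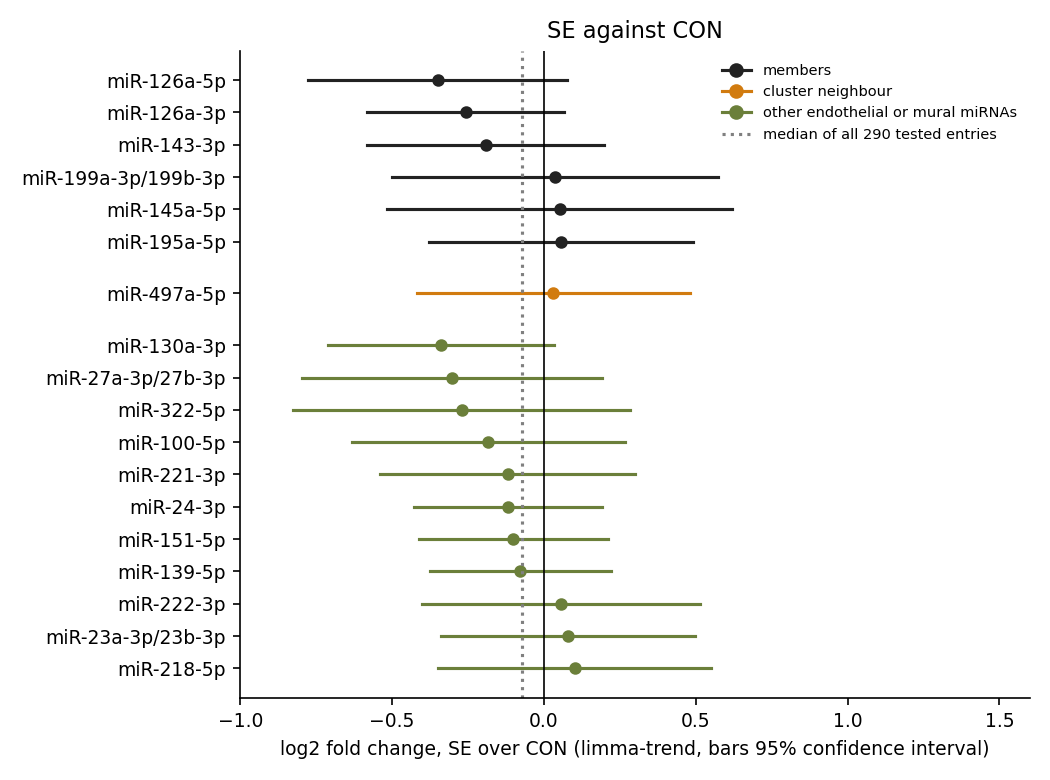
Log2 fold change of SE over CON from limma-trend with its 95% confidence interval for the 6 tested members (black), miR-497a-5p (orange) and 11 other miRNAs known in endothelial or mural cells (green). The dotted line marks the median of all 290 tested entries, -0.07, and every interval shown includes 0.

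In RPM, the tested members had their highest and lowest values in few of the libraries. Of the 6 tested members, 5 were highest in CON replicate 3 and 1 in CON replicate 1, and 4 were lowest in CON replicate 2 and 2 in SE replicate 3. Of all 290 tested entries, 24.5% were highest in CON replicate 3 and 28.3% in CON replicate 1. The lowest value was in CON replicate 2 for 14.5% of them and in SE replicate 3 for 27.9%. CON replicates 2 and 3 were the ends of the CON range for 5 of the 6 members, miR-145a-5p being the exception. Every member with a test had a larger SD in CON than in SE. Neither trait was counted over all 290 tested entries, so they are not shown to be particular to the members. Non-members went both ways. The SD of miR-9-5p was 1307 RPM in CON and 152 RPM in SE, and that of miR-151-5p was 970 and 2203.5 RPM. Members measured in the same 6 libraries are not independent of each other. The places of the highest and lowest values hold for RPM. The factors of a scaling by median ratios ran from 0.881 (SE replicate 3) to 1.08 (CON replicate 1), so that scaling can move them. The places were not read again under it.

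**Figure D5:**
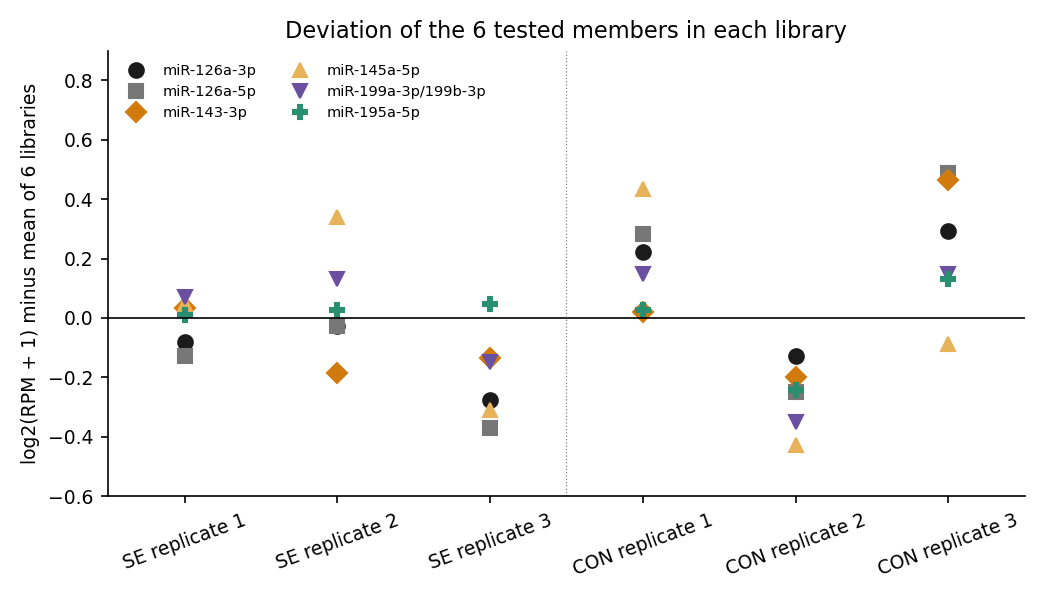
Level of each tested member in each library as log2(RPM + 1) minus the member's own mean over the 6 libraries. Both arms of miR-126a are highest in CON replicate 3, at 0.29 and 0.49, and lowest in SE replicate 3, at -0.28 and -0.37, while miR-145a-5p is highest in CON replicate 1 at 0.43 and lowest in CON replicate 2 at -0.43.

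Likeness of pattern was measured as the mean absolute difference of centred log2(RPM + 1) values over the 6 libraries. The non-members most like miR-126a-3p were miR-26b-5p (0.0521), miR-300-5p (0.0684) and miR-30e-3p (0.0753), where the median of the 284 non-members was 0.225. Its own hairpin partner miR-126a-5p stood at 0.0869, with 7 non-members closer. For miR-143-3p the closest were miR-137-3p (0.0484), miR-9-3p (0.0522) and miR-222-5p (0.0750). Its cluster partner miR-145a-5p stood at 0.318, farther than the median non-member at 0.239, and 215 of the 284 non-members were closer. With 100 to 279 reads a library, miR-145a-5p was counted far less precisely than miR-143-3p. Its measured coefficient of variation was 23.01% in SE and 31.8% in CON, where counting error alone would give 7.05% and 8.24%. The miR-199a-3p entry, with 74 to 200 reads a library, stood at 0.161 from miR-143-3p. The part of counting error in the distance of miR-145a-5p was not tested.

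The other arms and cluster neighbours of the member hairpins were 11 names, of which 5 were above 0 and 2 were tested. Those tested were miR-497a-5p and miR-199b-3p, which shares its entry with miR-199a-3p. The passenger arm miR-145a-3p was at 0.598 to 2.16 RPM in SE and 1.61 to 2.77 RPM in CON, and miR-195a-3p at 1.496 to 2.09 and 1.64 to 4.65 RPM. The ranges of both overlapped between the groups, as did those of miR-199b-5p, which was above 0 in 4 libraries at up to 1.84 RPM. In all 6 libraries miR-143-5p, miR-145b, miR-214-5p, miR-10a-3p, miR-10b-3p and miR-497a-3p were at 0.

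A wider list of 14 miRNAs known in endothelial or mural cells, none of them a member, had 14 above 0 and 11 tested. Of the 11, 0 passed at the adjusted p and 0 at an unadjusted p under 0.05 in limma-trend, 8 had a log2 fold change below 0 and 3 above, and their median was -0.12. The groups of 1 of the 11 did not overlap, where 14.8% of all 290 tested entries did not. That entry was miR-130a-3p, known to promote the angiogenic state of endothelial cells. It was at 622, 758 and 697 RPM in SE and 947, 848 and 830 RPM in CON, with a log2 fold change of -0.34 (standard error 0.18, limma-trend adjusted p = 0.608). The miR-221-3p and miR-222-3p pair, known to restrain endothelial growth, had log2 fold changes of -0.12 and 0.06. The other 8 tested were miR-139-5p, miR-322-5p, miR-218-5p, miR-24-3p, miR-100-5p, miR-151-5p and the merged entries of miR-27a-3p with miR-27b-3p and of miR-23a-3p with miR-23b-3p, and their log2 fold changes ran from -0.30 to 0.10. Of the 3 not tested, miR-296-5p and miR-503-5p overlapped between the groups. The third, miR-151-3p, was at 13.7, 11.1 and 9.42 RPM in SE and 6.97, 8.57 and 7.07 RPM in CON, again without overlap. Of the 130 entries with a mean of 3 to 10 RPM, 4.62% were without overlap and higher in SE. The share over both directions would be at least as high.

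In the authors' deposited table, whose log2 fold changes are positive where CON is higher, the adjusted p was 0.975 for every member above 0, and 1.04% of its 772 entries with an adjusted p passed 0.05. Its log2 fold change was 0.16 (standard error 0.13) for miR-126a-3p, 0.27 (standard error 0.20) for miR-126a-5p and 0.11 (standard error 0.18) for miR-143-3p. For miR-10a-5p the authors' deposited table gives -0.98 (standard error 0.56), again with SE higher. With the scaling by median ratios used as an alternative, the median of all tested entries moved from -0.07 to 0.03. The log2 fold changes then were -0.15 for miR-126a-3p, -0.25 for miR-126a-5p and -0.09 for miR-143-3p, and 0.15, 0.14 and 0.16 for miR-145a-5p, the miR-199a-3p entry and miR-195a-5p. The difference in the mean sum of the members, SE minus CON, was then -769 in place of -1311 RPM. Quantile normalization gave -0.16 for miR-126a-3p, -0.08 for miR-126a-5p and -0.06 for miR-143-3p.

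Markers of other cells were read in the same libraries. The red cell list summed to 7068 to 7609 RPM in SE and 7983 to 9497 RPM in CON, nearly all of it miR-16-5p. Its merged entry of miR-486a-5p and miR-486b-5p was at 16.8 to 32.2 RPM in SE and 19.1 to 28.6 RPM in CON. Both miR-144-3p and miR-144-5p were at 0 throughout. In all libraries but CON replicate 3, where it had 6 reads, miR-451a was at 0. The myeloid and lymphocyte list, of which 1 of 3 tested entries was called (miR-155-5p, lower in SE), summed to 97.3 to 121 and 184 to 216 RPM. The liver list summed to 105 to 125.7 and 166 to 255 RPM, and the muscle list to 208 to 222.2 and 234 to 311 RPM. These 4 sums were lower in every SE library than in every CON library, and 1 entry carried each of them. Without miR-16-5p, miR-155-5p, miR-122-5p and miR-1a-3p, the rest of all 4 lists overlapped between the groups. The rest of the myeloid and lymphocyte list, for example, summed to 75.9 to 93.2 RPM in SE and 73.3 to 110.7 RPM in CON. The neuron, oligodendrocyte and choroid plexus lists overlapped between the groups, the neuron list at 20692 to 25425 and 23074 to 27468 RPM. The part of these cells in the member values was not tested.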

How the data were processed

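Small RNA of mouse brain vesicles was sequenced in 6 libraries, 3 SE and 3 CON, grouped by their labels. Per the labels' protocols, RNA came from a column kit with DNase treatment and libraries from the QIAseq miRNA kit. The submitters' processing notes name build mm9 and DESeq2. Aligner, counter and use of molecular identifiers are not given in the sources used here. The authors deposited RPM values, scaled so that every library has the same total. Per the file headers, their other table gives for each entry a base mean (the mean normalized signal), the log2 fold change between the groups and the error of that change. It also holds a test score, p-values and their adjusted form, per the file headers.

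The CON columns do not follow the miRNA names. All 687 CON rows above 0 were put back through the authors' base means, within a relative tolerance of 1e-05, and 739 names then had other CON reads than as deposited. Each of the 687 matched 1 set of reads only, with a largest relative difference of 1.98e-09. All 289 tested entries above 0 in both groups then had a log2 ratio within 0.05 of the authors' log2 fold change, against 59 as deposited. Because the rows were matched through the base means, that ratio is largely set by them. It is no separate check of the values of single CON libraries. Reads were recovered on the reading that the lowest RPM value of each column, as deposited, stands for 2 reads.

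Under R 4.3.3, SE and CON were compared by the limma-trend method of limma 3.58.1. The fit used log2(RPM + 1) of entries with a mean of at least 10 RPM and Benjamini-Hochberg adjustment over all 290 tested. A call is an adjusted p under 0.05. The scripts were tested on simulated data. RPM hold no sampling depth themselves, so depth, floors of 3 reads and intervals rest on the recovered reads. Alternatives were other pseudocounts, filters and scalings, limma-voom, the replicate number as a block, leaving out each library, and the CON rows as deposited. The rule for named entries covered all members, their other arms and cluster neighbours, up to 4 other entries for each member seed, the listed vascular miRNAs, and the 3 entries most like miR-126a-3p and miR-143-3p. Of the lists of other cell types, the red cell list was named in full and the others only by the entries that carry a sum. Members, lists and tests were chosen with earlier results of these data known. Ratios with a member at 0 were left out.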

Additional observations from a re-analysis of the deposited data

How the results depend on the processing

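Across 100 alternative results for the 6 tested members, 92 kept the direction, 8 reversed it and 0 were called. They include the authors' own DESeq2 result and the CON rows as deposited for each member. The adjusted p, from limma or DESeq2, ran from 0.173 to 0.9997. With the CON rows as deposited, 0 entries were called instead of 3, the log2 fold changes of miR-126a-3p, miR-145a-5p and miR-199a-3p became 0.083, -0.055 and -0.017, and the difference in the summed members was -156 in place of -1311 RPM, because other rows then stand under the names. The log2 differences of miR-10a-5p and miR-199a-5p were then -0.09 and 0.31. Leaving out 1 library gave 3 to 6 called entries, -2063 to -675 RPM for the sum, and log2 fold changes of -0.39 to -0.18 for miR-126a-3p, -0.56 to -0.19 for miR-126a-5p, -0.34 to -0.01 for miR-143-3p, -0.15 to 0.28 for miR-145a-5p, -0.13 to 0.12 for miR-199a-3p, -0.050 to 0.14 for miR-195a-5p, 0.39 to 0.84 for miR-10a-5p, -1.25 to -0.12 for miR-199a-5p and -0.08 to 0.38 for miR-10b-5p. Without CON replicate 2, miR-145a-5p, miR-199a-3p and miR-195a-5p were at -0.15, -0.13 and -0.050. Without SE replicate 2, miR-145a-5p and miR-199a-3p were at -0.10 and -0.02. An added limma-voom fit without a filter, chosen after seeing the data, gave 0.74 for miR-10a-5p (adjusted p = 0.867) and 0.81 for miR-10b-5p (adjusted p = 0.928).

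With the replicate number as a block 3 entries were called. Correlations of deviations from the group means between libraries of the same number were -0.415, -0.249 and 0.0447. With 3 libraries a group such correlations cannot show whether libraries were paired. The numbers were not taken as pairs in the main fit. Depth limits miR-10b-5p and miR-199a-5p, with at most 24 reads a library, and miR-214-3p, at 0.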
